A study of Mus musculus with 16 samples.

Results

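The genes described here carry out the G2 phase and mitosis: the cyclins and kinases that start division, the kinetochore and spindle parts that move chromosomes, the checkpoint that watches over them, and the proteins that split the cell. A list of 40 such genes was followed on arrays of 3T3-L1 cells, mouse preadipocytes that grow as fibroblasts until they are induced to become fat cells. Probes were taken where the platform's annotation named 1 gene and that gene was a member. By this rule 38 of the 40 genes had probes, 59 in all, among 19640 genes measured. The cyclin gene Ccnb1 and the separase gene Espl1 had no probe of their own and were not analysed here. Of the 38 genes, 24 had 1 probe and 14 had several.

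The cells had been given dexamethasone (dex), a synthetic glucocorticoid, or DMSO, its vehicle, and total RNA was taken after 2 h or 36 h. The 4 groups are therefore DMSO 2 h, dex 2 h, DMSO 36 h and dex 36 h, each with 4 biological replicates and 16 arrays in all. The sources used here name no dose, serum or cell density. Each array compared a sample, in Cy5, with a pool of the samples, in Cy3, and all values below are log ratios of sample over pool, read as log2. A ratio of 0 is nominally the level of the pool, so ratios do not rank genes by abundance. In RNA from whole cultures, a larger share of dividing cells and more RNA per dividing cell cannot be told apart.

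Most of these genes are silent or low in resting cells and climb together late in the cycle. Cdk1 bound to a B-type cyclin drives entry into mitosis, and the Cdc25 phosphatases switch it on. Aurora and Polo-like kinases then build the spindle, the Bub and Mad proteins hold back separation until chromosomes are attached, and the anaphase-promoting complex with Cdc20 ends mitosis. 3T3-L1 cells induced by hormones divide again before they become fat cells, and dex is a standard part of the mixture used to induce them.

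Transcription of this class is known to run through a short promoter element, the cell cycle genes homology region (CHR), which is bound by the MuvB complex, and through CCAAT boxes, which are bound by NF-Y. RefSeq promoter windows of build GRCm38.p6, 250 bases before to 50 after each start, were found for 31 of the 38 genes, 33 windows in all. TTTGAA or TTCGAA, read here as the CHR, stood on either strand of 27 windows (81.8%), against 19.2% of all 32851 promoters in the table and 22.7% of the 44 windows of replication genes. CCAAT stood on either strand of 26 windows (78.8%), against 37.4% of all promoters and 59.1% of those of replication genes. Both stood in 24 windows (72.7%), against 7.52% and 13.6%. Between 100 bases before and 50 after the start, 78.8% of the members' windows held the CHR letters, against 8.59% of all.

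**Figure D1:**
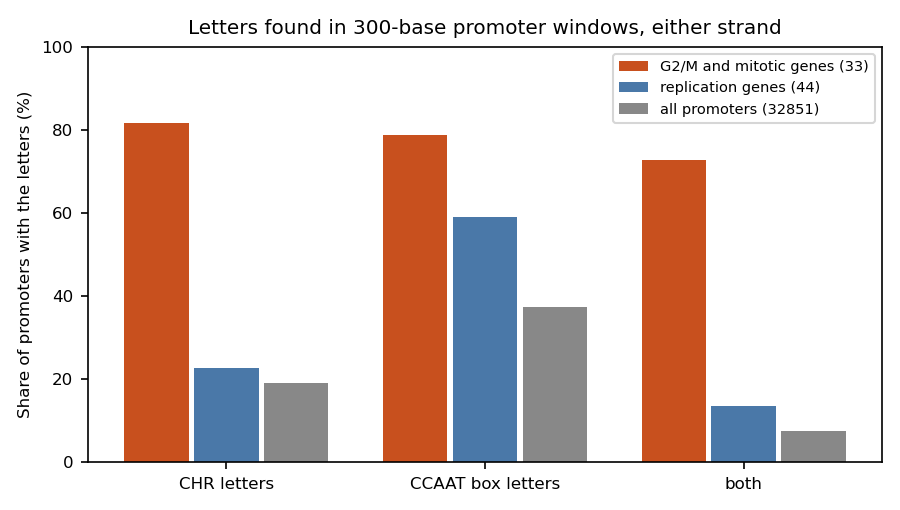
Share (%) of 300-base promoter windows that hold the CHR letters, the CCAAT letters or both on either strand, for 33 windows of G2/M and mitotic genes, 44 of replication genes and all 32851. The bars of the mitotic genes reach 81.8%, 78.8% and 72.7%, and those of all promoters 19.2%, 37.4% and 7.52%.

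The 4 stretches below show how these letters lie upstream of the start. They belong to the 4 genes with the largest changes at 36 h whose window holds both kinds of letters before the start, the cyclin gene Ccnb2, the topoisomerase gene Top2a, the anaphase activator gene Cdc20 and the checkpoint kinase gene Bub1b, of which Cdc20 and Bub1b did not pass the test at 36 h. Each is printed 5′ to 3′ on the gene's strand. Capitals mark TTTGAA and TTCGAA (the former reads as TTCAAA on the other strand) and CCAAT (which reads as ATTGG there), and no CHR match overlaps a CCAAT match.
Ccnb2, chr9:70421555-70421804, minus strand: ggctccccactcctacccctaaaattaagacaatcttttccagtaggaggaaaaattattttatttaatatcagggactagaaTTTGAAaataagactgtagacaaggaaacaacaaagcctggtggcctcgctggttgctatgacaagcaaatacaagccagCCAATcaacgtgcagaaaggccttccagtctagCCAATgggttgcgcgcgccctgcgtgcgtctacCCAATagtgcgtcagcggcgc
Top2a, chr11:99024200-99024439, minus strand: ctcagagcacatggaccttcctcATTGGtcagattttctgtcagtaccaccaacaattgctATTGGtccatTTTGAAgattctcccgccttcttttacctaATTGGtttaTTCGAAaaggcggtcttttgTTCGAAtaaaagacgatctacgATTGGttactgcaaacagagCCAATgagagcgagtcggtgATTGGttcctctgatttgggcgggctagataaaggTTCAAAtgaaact
Cdc20, chr4:118437344-118437593, minus strand: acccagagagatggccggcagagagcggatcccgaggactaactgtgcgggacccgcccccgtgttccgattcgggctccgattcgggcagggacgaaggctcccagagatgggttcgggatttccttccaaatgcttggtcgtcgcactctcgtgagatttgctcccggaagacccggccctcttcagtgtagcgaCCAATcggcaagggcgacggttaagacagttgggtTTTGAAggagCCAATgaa
Bub1b, chr2:118597961-118598201, plus strand: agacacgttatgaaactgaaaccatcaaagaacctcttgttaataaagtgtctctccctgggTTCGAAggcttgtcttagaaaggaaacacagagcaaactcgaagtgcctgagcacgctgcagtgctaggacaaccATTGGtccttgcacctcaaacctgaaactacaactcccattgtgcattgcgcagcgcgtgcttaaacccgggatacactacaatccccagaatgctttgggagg

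In the Ccnb2 stretch 3 CCAAT boxes begin 87, 54 and 21 bases before the start, evenly spaced, and the CHR letters begin 167 before it. In the Cdc20 stretch the CHR letters begin 18 bases before the start, between CCAAT boxes at 53 and 8. The Top2a stretch holds 6 CCAAT matches and 4 CHR matches, and that of Bub1b 1 of each. The windows of Ccnb2 and Bub1b also hold CHR letters after the start, which are not printed. Of the 9 windows of genes that rose at 36 h, the CHR letters stood in 6 (66.7%), CCAAT in 7 (77.8%), both kinds in 6 (66.7%) and CCAAT more than once in 7 (77.8%), the last against 54.5% of all 33 windows. These shares rest on few windows and were not tested against each other. The windows of Nusap1 and Nuf2, which rose, held neither kind, as did those of Mad2l1 and Birc5. The windows of Plk1, Ube2c and Cdca3, which did not pass the test, held both. Ccna2, Cdc25c, Pbk, Aurkb, Incenp, Tpx2 and Kif20a had no entry.

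Median ratios over all probes lay between -0.011 and 0.0083 on the 16 arrays. Fkbp5, a dex-induced gene whose product binds the receptor's chaperone complex, read 1.01, 1.16, 0.78 and 1.04 in dex 36 h replicates 1 to 4 against -2.30, -2.16, -1.93 and -2.05 in DMSO 36 h, so the labels of treatment hold on every 36-hour array. The DMSO 2 h arrays were little alike, replicate 4 least of all. Their mean correlations with their group across probes were 0.0734, 0.136, 0.203 and -0.104 in replicates 1 to 4. In the other 3 groups these lay between 0.171 and 0.642. The comparisons at 2 h, between the dex effects and in DMSO over time rest on this group. A missing call there does not show that a gene was unchanged. Markers of macrophages and of endothelium (4 genes each) gave 0 calls at 2 h and 36 h in limma. Of 4 epithelial markers, Krt8 was 1.15 ± 0.08 (SE) higher with dex at 36 h. Of 7 fibroblast markers, 4 were lower at 36 h, Dlk1, Col1a1, Col1a2 and Col3a1, by log2 changes of -0.86, -0.72, -0.58 and -0.54. The part of these shifts in the mitotic genes' values was not tested, and ratios to a pool do not show whether a marker is absent.

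At 36 h most genes of this list, which was chosen with earlier results of these data known, lay higher with dex than with DMSO. In limma, 9 of the 38 rose (23.7%) and 1 fell (2.63%), where 6.88% of all genes rose and 4.96% fell. The median change was 0.41 on the log2 scale, or 1.33-fold, against -0.0012 over all genes, and 29 of the 38 changes were above 0. At an unadjusted p under 0.05, 23 lay higher and 1 lower. The share of all genes at the unadjusted threshold was not counted, here or below, so these counts show no excess over all genes. The genes that rose were Nusap1, Ccnb2, Top2a, Nek2, Nuf2, Aurka, Bub1, Cdk1 and Cdca8, and the gene that fell was Aurkb. A gene passed where 1 of its probes had an adjusted p under 0.05 over the 38467 probes of the comparison, and the value quoted is that of the probe with the strongest evidence over both dex comparisons, ± SE, n = 4 per group.

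The size of that count rests on single arrays. Without dex 36 h replicate 1 it was 3 in place of 10, without replicate 3 again 3, and without replicate 2 it was 18. The share of all genes that passed moved the same way, from 11.7% to 6.56%, 6.95% and 15.7%. Without DMSO 36 h replicates 1, 2 or 3 the count was 4, 3 and 6 (6.83%, 6.65% and 8.06% of all genes). Without DMSO 2 h replicate 4, which adds only to the estimate of the spread, the count was 17 (15.7%). Nusap1, Nek2 and Top2a passed in each of these fits, and the other 7 genes lost their calls without dex 36 h replicate 1 or 3 or DMSO 36 h replicate 2. The median change moved less, from 0.29 without dex 36 h replicate 3 to 0.50 without replicate 2.

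**Figure D2:**
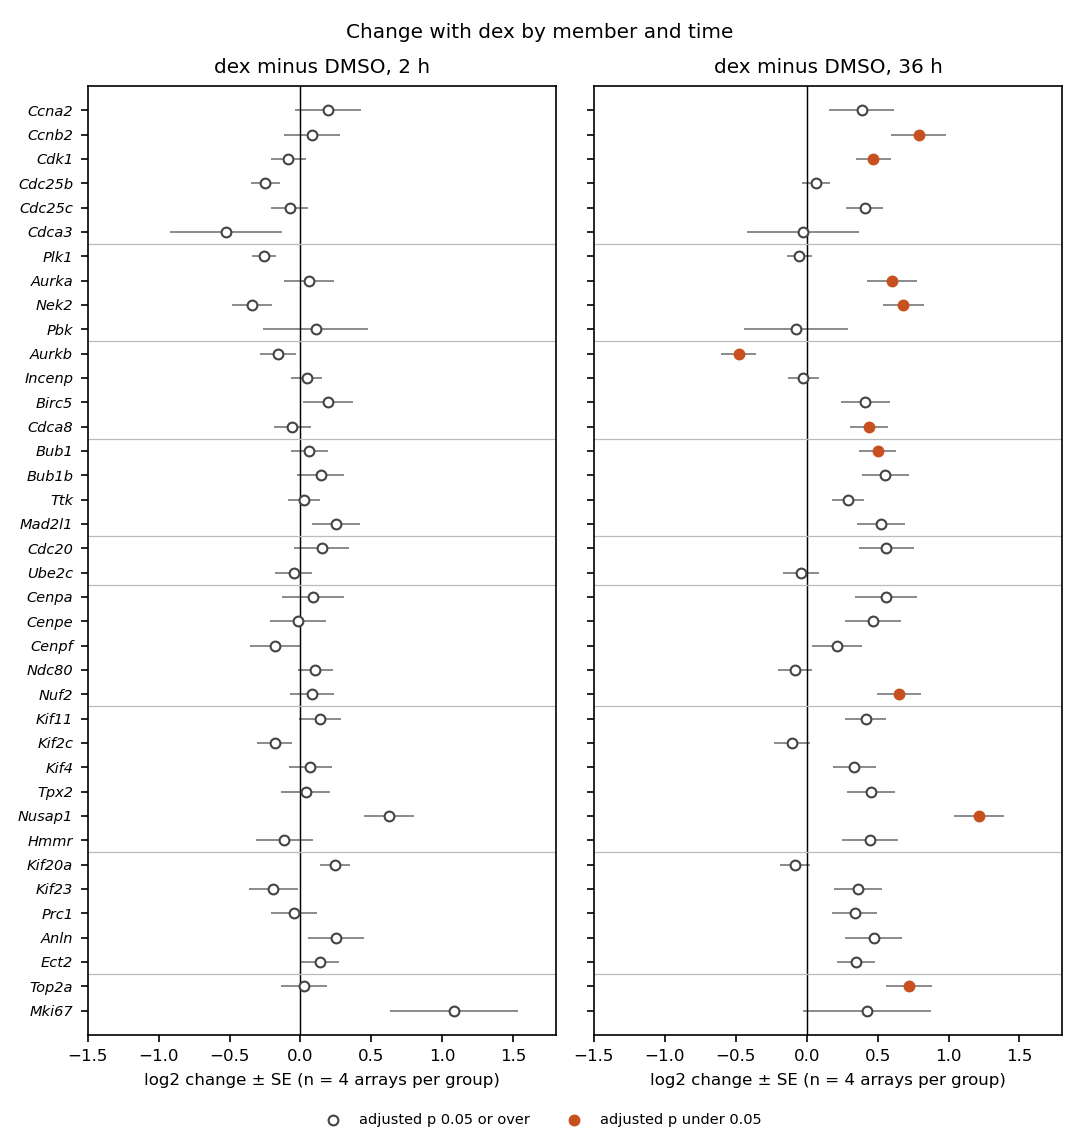
Log2 change with dex (points) ± SE (bars), n = 4 arrays per group, for 38 genes at 2 h (left) and 36 h (right); filled points have a limma adjusted p under 0.05, and grey lines part the roles. At 36 h most points lie right of 0, with Nusap1 farthest at 1.22 and Aurkb at -0.48, and at 2 h no point is filled.

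Among the genes that start mitosis, 2 of 6 rose at 36 h. Ccnb2, a B-type cyclin that activates Cdk1, read 0.60, -0.065, 1.0 and 0.025 in dex 36 h replicates 1 to 4 and -0.54, -0.54, -0.13 and -0.39 in DMSO 36 h. At 2 h it read 0.0027, 0.22, -0.075 and -0.17 with dex and -0.19, -0.086, -0.26 and 0.18 with DMSO. All 4 dex arrays at 36 h lay above all 4 DMSO arrays, replicates 1 and 3 far above and replicates 2 and 4 near the pool. The change was 0.79 ± 0.20, or 1.73-fold (limma adjusted p = 0.0199).

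Cdk1, the kinase that drives mitosis, read 0.24, -0.18, 0.56 and 0.0035 with dex at 36 h and -0.38, -0.37, -0.32 and -0.18 with DMSO. The 2-hour arrays read -0.35, -0.17, -0.15 and -0.14 with dex and 0.0036, -0.21, -0.16 and -0.12 with DMSO. Its dex 36 h replicate 2 lay barely above the highest DMSO array, and the order of arrays was that of Ccnb2. The change was 0.47 ± 0.12, or 1.38-fold (limma adjusted p = 0.0288). The other Cdk1 probe did not follow, with a change of -0.053 and 1 high array, DMSO 2 h replicate 4 at 1.14.

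The other 4 genes of this role did not pass. Cdc25c, a phosphatase that activates Cdk1, was next to the threshold with a change of 0.41 (adjusted p = 0.0663) and all dex arrays above all DMSO arrays, while its other 2 probes gave -0.0079 and 0.074. Ccna2, the cyclin of S phase and G2, had a change of 0.39 (0.377), again with its arrays apart. Cdc25b, another such phosphatase, gave 0.066. Cdca3, which is linked to mitotic entry, gave -0.029 and was the member with the largest p here (0.996).

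Of the mitotic kinases, 2 of 4 rose. Nek2, a kinase that parts the centrosomes, read 0.28, 0.080, 0.63 and 0.13 with dex at 36 h and -0.50, -0.35, -0.25 and -0.50 with DMSO. On the 2-hour arrays the probe read -0.39, -0.073, -0.32 and -0.20 with dex and 0.15, 0.18, -0.30 and 0.35 with DMSO. The 36-hour groups lay apart on either side of the pool, and at 2 h the dex arrays were mostly the lower. The change at 36 h was 0.68 ± 0.14, or 1.60-fold (limma adjusted p = 0.00672), but the other Nek2 probe gave 0.081.

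Aurka, the Aurora kinase of centrosomes and spindle poles, read 0.40, 0.026, 0.90 and -0.0036 with dex at 36 h and -0.47, -0.28, -0.15 and -0.19 with DMSO. At 2 h it read -0.023, 0.27, -0.12 and -0.015 with dex and -0.11, 0.29, -0.045 and -0.26 with DMSO. Its 36-hour groups lay apart, with replicates 1 and 3 again highest, and its 2-hour groups overlapped. The change was 0.60 ± 0.17, or 1.52-fold (limma adjusted p = 0.0443).

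Plk1, the Polo-like kinase that acts throughout mitosis, read -0.0018, -0.012, -0.0041 and -0.11 with dex at 36 h and 0.025, 0.029, 0.015 and 0.0089 with DMSO. The 2-hour arrays read -0.044, -0.26, -0.24 and -0.11 with dex and 0.32, -0.047, 0.10 and -0.023 with DMSO. All its 36-hour values sat close to the pool, so that the dex arrays lay below the DMSO arrays by a change of only -0.052 ± 0.086 (limma adjusted p = 0.868). Its other probe gave 0.30 (0.401) and had replicates 1 and 3 of dex 36 h highest, at 0.30 and 0.59. Pbk, another mitotic kinase, had a change of -0.075 (0.979). Its dex 36 h replicate 3 read -2.10, and without that array the change was 0.47 (adjusted p = 0.0933).

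The chromosomal passenger complex corrects faulty attachments of chromosomes and later helps to split the cell. Of its 4 genes, 1 rose, 1 fell and 2 did not pass the test at 36 h. Aurkb, its kinase, read -0.95, -0.64, -1.28 and -0.96 with dex at 36 h and -0.34, -0.31, -0.52 and -0.74 with DMSO. On the 2-hour arrays the probe read -0.62, -0.52, -0.67 and -0.63 with dex and -0.62, -0.28, -0.47 and -0.44 with DMSO. All 16 ratios of its 1 probe lay below 0. If the pool held all these samples, their levels cannot all lie below it. The ratios of this probe are therefore not read as levels against the pool, and the reason was not tested. The 36-hour groups overlapped at DMSO replicate 4 and dex replicate 2. The change was -0.48 ± 0.13, or 1.40-fold lower (limma adjusted p = 0.0274), and it was the only fall among the 38 genes to pass.

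Cdca8, or borealin, which targets the complex to the centromere, read 0.37, 0.045, 0.56 and -0.029 with dex at 36 h and -0.11, -0.36, -0.26 and -0.080 with DMSO. Its groups lay apart by a small margin, and the change of 0.44 ± 0.13 passed closely (1.36-fold, limma adjusted p = 0.0495). Its other probe gave 0.37 (0.518). Birc5, or survivin, had a change of 0.41 (0.175) with its arrays apart, and 2 further probes gave 0.33 and 0.24. Incenp, the scaffold, gave -0.023 (0.978), so that the 4 subunits spanned changes from -0.48 to 0.44.

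The spindle checkpoint genes all lay higher at 36 h, and 1 of 4 passed. Bub1, a checkpoint kinase of the kinetochore, read 0.38, -0.15, 0.50 and 0.032 with dex at 36 h and -0.42, -0.37, -0.18 and -0.27 with DMSO. At 2 h it read 0.014, -0.085, -0.19 and -0.30 with dex and -0.11, -0.032, -0.34 and -0.31 with DMSO. The 36-hour groups lay apart, with replicate 2 the lowest dex array, and the change was 0.50 ± 0.13 (1.41-fold, limma adjusted p = 0.0279). Just outside the threshold stood Bub1b, which inhibits Cdc20, with 0.55 (0.0505), and Mad2l1, or Mad2, its partner, with 0.52 (0.0708). Ttk, the kinase that recruits them, had 0.29 and the largest p of the 4 (0.133). For all 4 genes every dex array at 36 h lay above every DMSO array, and at an unadjusted p under 0.05 all 4 differed.

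Of the genes of the anaphase-promoting complex, neither of the 2 measured passed. Cdc20, which activates the complex, had a change of 0.56 ± 0.20 at 36 h (limma adjusted p = 0.0931), with its groups apart and dex replicates 1 and 3 at 0.50 and 0.75. Its other probes gave 0.19 and 0.39. Ube2c, the enzyme that hands ubiquitin to the complex, gave -0.041 (0.958).

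At the kinetochore, where chromosomes meet the spindle, 1 of 5 genes rose. Nuf2, a microtubule-binding subunit of the Ndc80 complex, read 0.43, -0.11, 0.42 and -0.10 with dex at 36 h and -0.51, -0.67, -0.36 and -0.41 with DMSO. The 2-hour arrays read -0.21, -0.27, -0.39 and -0.19 with dex and -0.025, -0.18, -0.47 and -0.71 with DMSO. The 36-hour groups lay apart and dex fell into a high and a low pair of arrays. The change was 0.65 ± 0.16, or 1.57-fold (limma adjusted p = 0.0161). Ndc80 itself gave -0.083 (0.836), the largest p of the 5 and a value on the other side of 0 from its partner's, though the gap between both was not tested. Cenpa, the histone of centromeres, had 0.56 (0.136), the motor gene Cenpe 0.47 (0.176) and Cenpf, a late-G2 kinetochore protein, 0.22 (0.568). Cenpf read 0.17, 0.21, 0.27 and 0.30 in dex 36 h replicates 1 to 4, and Ndc80 -0.096, -0.016, 0.050 and -0.057, so that in neither gene were replicates 1 and 3 the 2 highest.

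Of the motors and builders of the spindle, 1 of 6 rose, and it had the largest change of all 38 genes. Nusap1, which binds and bundles spindle microtubules around chromosomes, read 0.75, 0.75, 1.04 and 0.34 with dex at 36 h and -0.55, -0.56, -0.26 and -0.61 with DMSO. On the 2-hour arrays the probe read 0.24, 0.63, 0.31 and 0.27 with dex and -0.69, 0.20, -0.19 and -0.36 with DMSO. On this probe the groups lay apart at both times, at 2 h by little, and at 36 h all 4 dex arrays were well above the pool, replicate 2 included. On the second probe the groups overlapped at 2 h, with a change of 0.11 (limma adjusted p = 0.871). At 36 h the change was 1.22 ± 0.18 on the quoted probe, or 2.33-fold (limma adjusted p = 3.35e-04), and the second probe gave 1.19 (3.40e-04). Kif11, the motor that keeps spindle poles apart, had 0.41 (0.10), Tpx2, which activates Aurka, 0.45 (0.122), Hmmr, a spindle pole protein, 0.44 (0.204) and the chromosome motor gene Kif4 0.33 (0.210). Kif2c, a motor that takes microtubules apart, gave -0.10 and the largest p of the 6 (0.758), and its DMSO 36 h replicate 4 stood at 0.60 against 0.16 to 0.20 for the other 3.

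None of the 5 genes of the spindle midzone and cytokinesis passed at 36 h in limma, with 2 higher at an unadjusted p under 0.05. Anln, an actin-binding protein of the cleavage furrow, had the largest change, 0.47 (adjusted p = 0.176). Ect2, which switches on RhoA at the furrow, had 0.35 and the smallest p (0.138). Kif23, the motor of centralspindlin, had 0.36 (0.242), Prc1, which bundles midzone microtubules, 0.34 (0.243), and the midzone motor gene Kif20a -0.085 with the largest p (0.777).

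Both remaining genes concern chromosomes. Top2a, the topoisomerase that untangles sister chromatids, read 0.52, 0.10, 0.70 and 0.037 with dex at 36 h and -0.50, -0.38, -0.26 and -0.37 with DMSO. At 2 h it read -0.15, 0.061, -0.18 and 0.0060 with dex and 0.13, 0.26, -0.33 and -0.43 with DMSO. The 36-hour groups lay on either side of the pool, and the change was 0.72 ± 0.16, or 1.65-fold (limma adjusted p = 0.0118).

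Mki67, whose product coats mitotic chromosomes and serves as a marker of dividing cells, read 0.46, -0.17, 0.73 and -0.093 with dex at 36 h and -0.076, -0.48, -0.14 and -0.087 with DMSO. The 2-hour arrays read 0.57, 0.65, 0.055 and -0.22 with dex and -2.61, 0.29, -0.16 and -0.81 with DMSO. Replicates 1 and 3 of dex 36 h were high as for the other genes, but replicates 2 and 4 lay among the DMSO arrays, and DMSO 2 h replicate 1 was far below the rest. The change at 36 h was 0.43 ± 0.45 (limma adjusted p = 0.708), and the other 3 probes gave 0.46, 0.32 and -0.41.

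**Figure D3:**
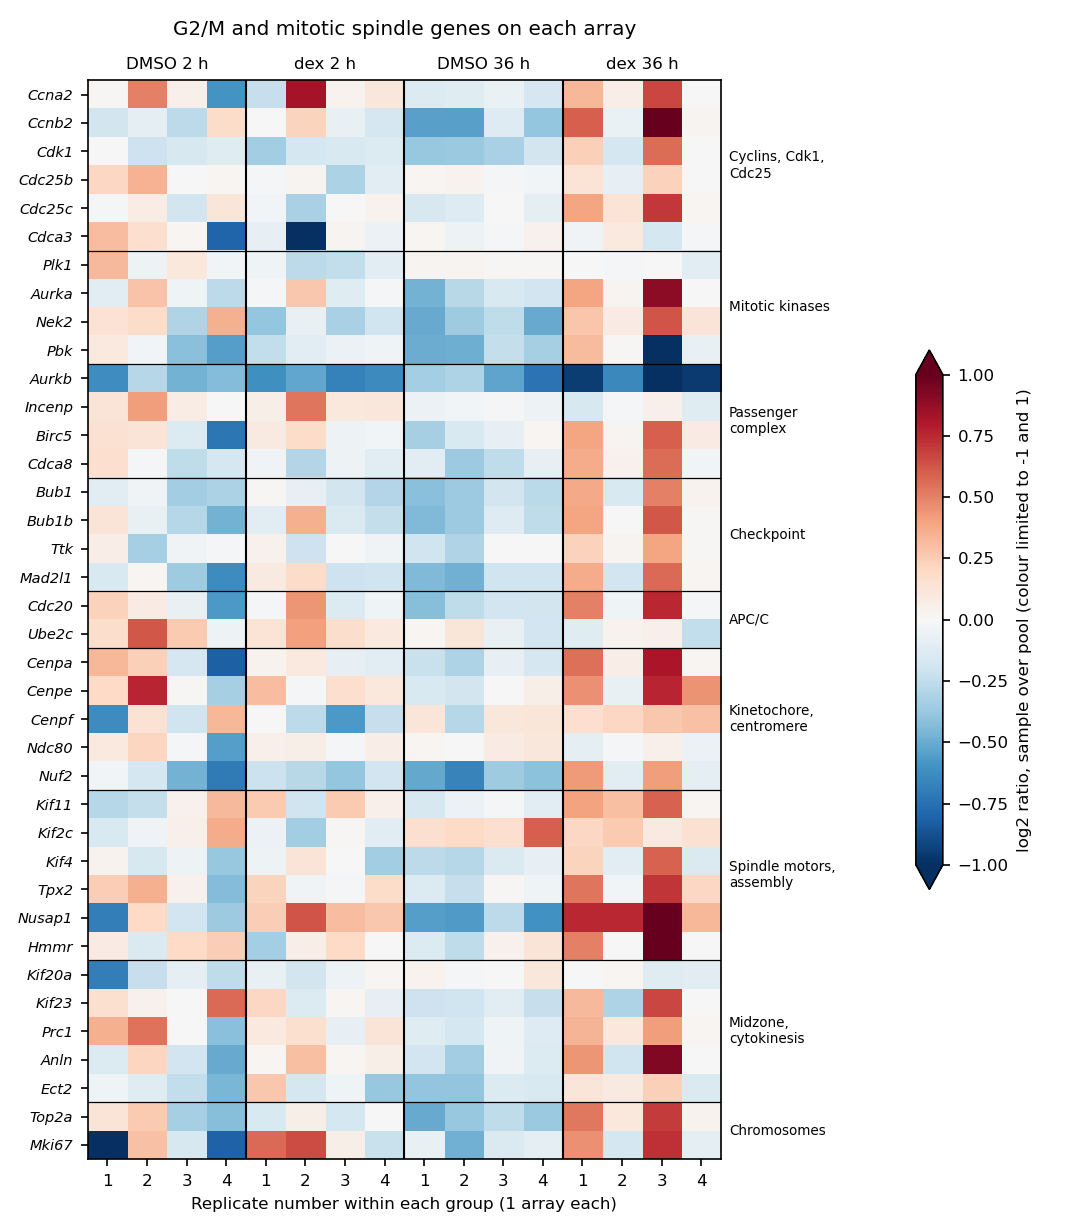
Log2 ratio of sample over pool (colour, limited to -1 and 1) of 38 genes, in rows by role, on 16 arrays, in columns by group and replicate. In dex 36 h, replicates 1 and 3 are red for most genes and replicates 2 and 4 pale, while DMSO 36 h is mostly blue; Aurkb is blue on all arrays.

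The dex 36 h group was not even. Over the 38 genes the median ratio was 0.35 and 0.58 in dex 36 h replicates 1 and 3 but 0.0045 and 0.0050 in replicates 2 and 4. In DMSO 36 h it was -0.20, -0.28, -0.078 and -0.13. Every dex array was thus above every DMSO array in this median, by far in replicates 1 and 3 and by less in replicates 2 and 4. Counted by gene, 30 of the 38 lay above all 4 DMSO arrays in replicate 1, 23 in replicate 2, 30 in replicate 3 and 25 in replicate 4. The median distance from the DMSO mean was 0.53, 0.16, 0.79 and 0.18 in the same order.

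Replicates 1 and 3 were the 2 highest dex arrays for 29 of the 38 genes (76.3%), a pattern noticed after the values were seen and given without a test. The same held for 60.5% of 86 other G2/M and mitosis genes, 62.8% of 43 replication genes, 54.3% of the 1320 other genes that rose at 36 h, and 30.2% of all genes. Fkbp5, by contrast, was lowest in replicate 3, at 0.78. The labels give no batch, harvest or passage for these arrays, and the source of the split was not tested.

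**Figure D4:**
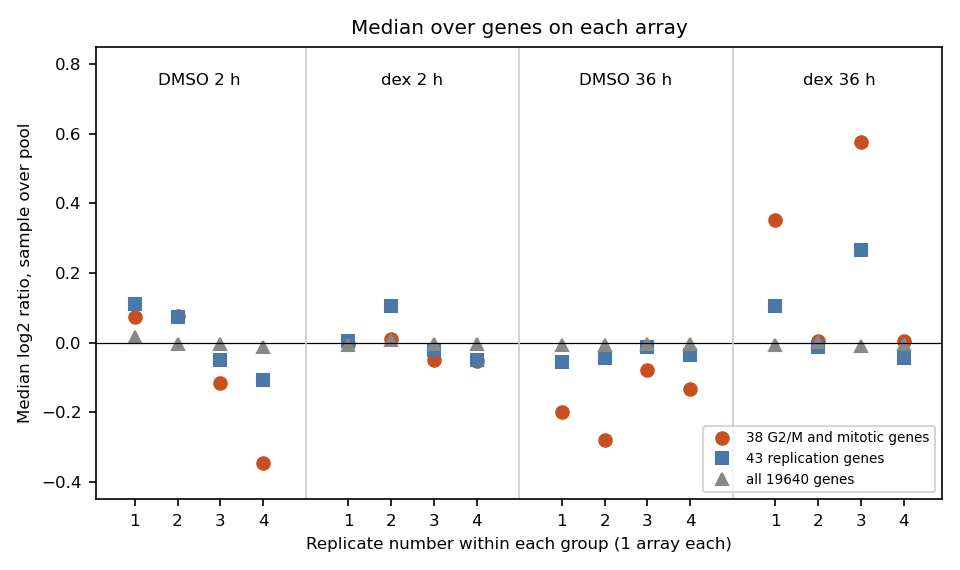
Median log2 ratio of sample over pool on each of 16 arrays, by group and replicate, for 38 G2/M and mitotic genes (circles), 43 replication genes (squares) and all 19640 genes (triangles). The circles stand at 0.35 and 0.58 in dex 36 h replicates 1 and 3, near 0 in replicates 2 and 4, and below 0 in all 4 DMSO 36 h arrays, while the triangles stay near 0.

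By quoted probe, all dex arrays lay above all DMSO arrays at 36 h for 20 of the 38 genes, against 15.5% of all genes, and below for 1, Plk1, against 15.7%. The other 17 overlapped. Aurkb was among those that overlapped, although it passed the test. Of the 20, 9 are the genes that rose.

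Probes of the same gene did not always move together. Of the 14 genes with several probes, 9 had changes of 1 sign at 36 h on all probes and 5 had both signs, namely Anln, Cdc25c, Cdk1, Mki67 and Plk1. Of the 4 that passed, only Nusap1 did so on all probes. Over all 59 probes, 46 changes were above 0 and 13 below, with a median of 0.34, and 11 probes passed. The share of all probes that passed was not counted, so this count shows no excess over all probes.

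After 2 h of dex, none of the 38 genes passed in limma, where 1.97% of all genes rose and 1.21% fell. At an unadjusted p under 0.05, 3 lay higher and 3 lower, with no share of all genes counted at that threshold. The median change was 0.052 against -0.012 over all genes, with 23 changes above 0 and 15 below. The largest were Mki67 with 1.08 ± 0.45 (adjusted p = 0.378) and Nusap1 with 0.62 ± 0.18 (0.10). That of Mki67 leant on 1 array, DMSO 2 h replicate 1 at -2.61, and was 0.49 without it. Nusap1 was the only member whose 4 dex arrays at 2 h all lay above the 4 DMSO arrays (4.05% of all genes). Its other probe gave 0.11 (0.871). Without DMSO 2 h replicate 2 the quoted probe passed, with 0.78 (adjusted p = 0.0191), the only call at 2 h when 1 array was left out. In that fit 3.18% of all genes passed. Cdca3 had the lowest change, -0.53 (0.681), which became 0.038 without dex 2 h replicate 2. The spread between replicates was uneven: the median SD over the 38 genes was 0.28 in DMSO 2 h and 0.15 in dex 2 h, against 0.12 in DMSO 36 h and 0.30 in dex 36 h.

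The dex effect at 36 h minus that at 2 h was tested as a contrast of its own. It passed for 2 of 38 genes upward, Nek2 and Nusap1, and for none downward, where 2.12% and 1.36% of all genes passed. At an unadjusted p under 0.05, 12 lay higher and 1 lower, again without a share of all genes. For Nek2 the difference was 1.02 ± 0.20 (limma adjusted p = 0.0116), made of -0.34 at 2 h and 0.68 at 36 h. Its other probe did not pass, with 0.27 (0.517), made of -0.19 and 0.081. For Nusap1 the second probe passed, with 1.08 ± 0.24 (0.0265), made of 0.11 and 1.19, whereas the quoted probe gave 0.59 (0.295), since it read higher with dex at 2 h already. Only Nek2 passed without dex 2 h replicates 1, 3 or 4, DMSO 2 h replicate 2, dex 36 h replicates 1 or 3, or DMSO 36 h replicates 1, 2 or 4, each left out alone. In those fits 2.32% to 3.27% of all genes passed. The median difference was 0.39, against 0.016 over all genes. For Ccnb2, Top2a and Cdk1 the differences of 0.71, 0.69 and 0.55 missed the threshold (adjusted p = 0.258, 0.167 and 0.141), so that for these genes a larger effect at 36 h than at 2 h was not shown.

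Time alone was compared within each treatment, and these comparisons share their arrays with those above. In DMSO from 2 to 36 h, none of the 38 genes passed in limma, where 0.27% of all genes rose and 0.993% fell. Unadjusted, 1 was higher and 3 lower, with no share of all genes counted at that threshold. The changes were below 0 for 31 genes and above for 7, with a median of -0.12 against -0.019 over all genes. Nek2 had the lowest adjusted p of the falling values here, -0.50 (0.148), and Kif20a, at 0.35 (0.179), was the only gene whose 36-hour arrays all lay above. Incenp and Kif23 were the genes whose arrays all lay below, with -0.20 and -0.38. That is 1 of 38 above and 2 below, against 4.49% and 7.86% of all genes. Without DMSO 2 h replicate 3, 1 gene passed, downward, where 1.37% of all genes passed.

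In dex from 2 to 36 h, again none of the 38 passed in limma, where 1.04% of all genes rose and 1.41% fell. Unadjusted, 9 were higher and 3 lower, again with no such share of all genes. The changes were above 0 for 32 genes and below for 6, with a median of 0.23 against 0.0050 over all genes. Nek2 came nearest to the threshold with 0.53 (adjusted p = 0.0835). Without DMSO 2 h replicates 3 or 4, 1 gene passed upward (2% and 4.19% of all genes passed). Without dex 36 h replicate 2, 2 did (3.24% of all genes). Nek2, Cdca8, Cenpf, Nuf2 and Kif2c had all 36-hour arrays above the 2-hour arrays, and Incenp and Ube2c had them below. That is 5 and 2 of 38, against 6.15% and 7.64% of all genes. Values with dex at 36 h thus lay above those at 2 h while values with DMSO lay below, for none of the genes past the threshold.

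Genes around the list were read from other lists, which like the members were chosen with earlier results of these data known. Of 86 other genes of G2 and mitosis, 5 rose (5.81%) and 2 fell (2.33%) at 36 h, shares no higher than the 6.88% and 4.96% of all genes, with a median change of 0.14. They included Racgap1, the partner of Kif23 in centralspindlin (0.62 ± 0.13, limma adjusted p = 0.00547), Aspm, a spindle pole protein (0.51 ± 0.13, 0.0221), and Pkmyt1, a kinase that holds Cdk1 inactive (-0.54 ± 0.16, 0.0429). Of 43 replication genes, 6 rose (14.0%) and none fell, with a median of 0.20, among them Rrm1 (0.67 ± 0.11, 8.86e-04), Tk1 (0.67 ± 0.18, 0.0287) and Rfc5 (0.57 ± 0.13, 0.0143). Their medians in dex 36 h replicates 1 to 4 were 0.10, -0.013, 0.27 and -0.043.

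Regulators that act on these promoters did not pass at 36 h (0 of 25 in limma, where 6.88% of all genes rose and 4.96% fell). Unadjusted, 1 was higher. Foxm1, the factor that binds with MuvB in G2, had 0.29 (adjusted p = 0.273), Mybl2, which joins it in S phase, 0.092 (0.846), and E2f1 -0.073 (0.913). At 2 h 1 of the 25 rose (4%, against 1.97% of all genes), the repressor gene E2f6, by 0.63 ± 0.15 (limma adjusted p = 0.0339).

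Of 10 inhibitors of cyclin-dependent kinases and related brakes, 5 rose (50%) and none fell at 36 h, where 6.88% of all genes rose and 4.96% fell. At 2 h, 2 rose (20%) and 3 fell (30%), against 1.97% and 1.21% of all genes. Cdkn1a, which encodes p21, rose by 0.85 ± 0.08 at 2 h (limma adjusted p = 7.70e-06) and by 0.69 ± 0.08 at 36 h (2.79e-05). Gadd45b, which can inhibit Cdk1 with cyclin B, rose by 0.70 ± 0.09 at 36 h (1.46e-04), and Gadd45g by 1.75 at 2 h and 0.54 ± 0.12 at 36 h. Cdkn1b and Cdkn1c, encoding p27 and p57, had -0.13 (0.752) and 0.15 (0.487) at 36 h. The 3 that fell at 2 h were Gadd45a (-0.85, limma adjusted p = 5.90e-05), Cdkn2c (-0.64, 0.00167) and Cdkn2b (-0.52, 8.44e-05). At 36 h they had -0.21, 0.089 and 0.0061, and none passed. Higher values of some genes that brake the cycle and of some that carry out mitosis were thus measured on the same 36-hour arrays.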

How the data were processed

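The deposited values, made by the authors, are log ratios of Cy5 sample over Cy3 pool per probe and array, in 1 table of 38467 probes. The dyes given in the labels set the direction as sample over pool, and the submitters' processing notes name limma. The sources used here do not give the log base, the background correction or the normalization. The deposited values were read as log2, the scale of limma's ratios. Were they natural logs, all changes would grow by the same factor. Scanner intensities were not used here, so signal over background is unknown, and the number of arrays limits the precision.

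Probes naming 1 gene (29456) were kept for gene counts and 760 naming several were not, with symbols updated by Entrez identifier through a RefSeq table of GRCm38.p6. Limma 3.58.1 in R 4.3.3 (lmFit, eBayes) fitted the 4 group means over all 16 arrays without further normalization. It left 12 residual and 3.19 prior degrees of freedom, and 131 missing values, none on a quoted probe of a member, were left out of the fit. Benjamini-Hochberg adjustment of the p-values ran over all probes of a contrast, and the script was tested on simulated data. The SE rests on 1 spread per probe for all groups, although the spread differed between groups.

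Every member was to be named. Values of every array were to be given for Cdk1, Mki67, Top2a, Aurkb, Plk1 and Ccnb1, the 8 largest changes at 36 h that passed, and those of the other contrasts that passed. From each role the smallest and the largest p, and from each other list the 3 largest changes at 36 h that passed, were to be named, plus Foxm1, Mybl2, E2f1, Cdkn1a, Cdkn1b and Cdkn1c. E2f6, Gadd45g, Gadd45a, Cdkn2b and Cdkn2c at 2 h and the genes nearest to the threshold were added after their values were seen. The members, lists and promoter letters were chosen with earlier results of these data known.

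Promoter letters were counted in RefSeq windows on both strands. Printed stretches end at the start of the gene, and Aurka and Cenpa, whose CHR letters lie after it, were passed over. Alternatives were the compared arrays alone, replicate number as a block, array weights, quantile and scale normalization, a robust prior, the design text's log-odds rule, the mean of a gene's probes, and each array left out in turn. Replicate numbers were not treated as pairs in the main fit, and the labels name no pairs. Deviations of same-numbered dex and DMSO arrays from their group means correlated between -0.103 and 0.255 at 2 h and between -0.075 and 0.34 at 36 h. Arrays with different numbers were not compared, so these values cannot show whether the numbers pair samples.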

Additional observations from a re-analysis of the deposited data

Results flagged for a closer look

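Of 152 sets of 4 replicate values, 1 for each of 38 genes and 4 groups, 11 (7.24%) held a value far from the other 3 by Dixon's criterion, which chance gives in about 1 in 20 sets. Of these, 4 lay on dex 2 h replicate 2: Cdca3 at -2.30, Incenp at 0.53, Nusap1 at 0.63 and Anln at 0.30. Another on dex 2 h was Cdk1 in replicate 1, at -0.35. In dex 36 h, Pbk read -2.10 in replicate 3 against -0.073 to 0.31 in the others, and Plk1 -0.11 in replicate 4. In DMSO 36 h, Cenpf read -0.28 and Mki67 -0.48 in replicate 2, Nusap1 -0.26 in replicate 3 and Kif2c 0.60 in replicate 4. None lay in DMSO 2 h.

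The dex effect differed between 36 h and 2 h, by the contrast of both, on 1 probe each of Nek2 and Nusap1. It differed by 1.02 on the quoted probe of Nek2 (limma adjusted p = 0.0116) and by 1.08 on the other probe of Nusap1 (0.0265). On the quoted Nek2 probe the dex arrays lay mostly below DMSO at 2 h and all above at 36 h. The other Nek2 probe gave a difference of 0.27 (0.517).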

How the results depend on the processing

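Counts of mitotic genes that passed depended on the fit more than their directions did. At 36 h the main fit gave 10 (11.7% of all genes), and array weights gave 29 (28 up, 1 down), where 46.3% of all genes passed. It was 18 with quantile normalization (22.1%), 17 with scale normalization (21.3%) and 2 by the design text's log-odds rule (5.23%). With the compared arrays alone it was 12 (23.2%). At 2 h, quantile or scale normalization each gave 1 gene in place of 0, Nusap1, where 3.38% and 3.51% of all genes passed. The difference between times gave 2 genes in the main fit (3.48% of all genes) and 4 with array weights (9.4%). It gave 4 with quantile (7.15%) and 4 with scale normalization (7.2%), and 1 by log-odds (2.55%). In DMSO over time, quantile and scale normalization each gave 1 in place of 0 (3.82% and 3.46% of all genes). In dex over time array weights gave 20 (20.2%), quantile 1 (4.17%) and scale 1 (4.78%). With single arrays left out the counts ran from 0 to 1 at 2 h, 3 to 18 at 36 h, 1 to 3 for the difference, 0 to 1 in DMSO and 0 to 2 in dex over time. At 36 h the share of all genes that passed ran from 6.56% to 15.7% in these fits. It ran from 2.42% to 3.98% at 2 h and from 2.32% to 4.64% for the difference. Over time it ran from 0.611% to 2.7% in DMSO and from 0.85% to 4.19% in dex.

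With the replicate block the counts were 9 at 36 h (10.1% of all genes), 2 for the difference (2.71%) and 0 in the other contrasts. Whether the numbers pair the samples is not known. The median change at 36 h stayed between 0.29 and 0.50. Over the 23 alternatives with an adjusted p, Nusap1 (up to 0.00190), Nek2 (up to 0.0278) and Top2a (up to 0.0497) passed at 36 h in all. By the log-odds rule Nusap1 and Nek2 passed, and Top2a, with log-odds of -0.48, did not. Calls were lost by Nuf2 in 3, Ccnb2 in 4, Bub1 in 5, Cdk1 and Aurkb in 6 each, Aurka in 12 and Cdca8 in 14, and Cdk1 fell to 0.21 (0.327) with the mean of its probes. The cause of these shifts was not tested.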
